A study of Cavia porcellus with 72 samples.

Results

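The 10 genes described here mark astrocytes or handle the glutamate that astrocytes take up. They were SLC1A2, SLC1A3, GLUL, S100B, SLC4A4, AQP4, GFAP, GJA1, ALDH1L1 and GLDC, chosen by symbol with earlier results of these data known. Each was found in the read count tables of all 3 generations, which shared 11446 genes. All 10 passed the filter on low counts in every generation. In the animals of the F1 generation that descended from glucocorticoid-treated dams all 10 had mean differences above 0 and 1 passed the test, where 48.3% and 1.63% of all genes did so. In F2 none passed (0% of all genes). In F3 all 10 were higher and 5 passed, against 51.7% of all genes above 0 and 2.17% called higher.

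Astrocytes surround synapses and clear the glutamate released there, chiefly through the sodium-coupled transporters SLC1A2 and SLC1A3. GLUL, glutamine synthetase, converts the glutamate to glutamine, which is returned to neurons as a precursor of new glutamate and GABA. AQP4 is the water channel of the astrocyte end-feet that line blood vessels, GFAP is the intermediate filament of the cell type, and GJA1, a connexin, forms the gap junctions that couple astrocytes into a network.

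Pregnant Dunkin-Hartley guinea pigs (F0) received the synthetic glucocorticoid betamethasone (sGC, Beta in the labels) or saline (Veh, Control in the labels) in repeated courses. F1 offspring were exposed in the womb, and F2 and F3 offspring were bred through the male line by mating F1 and then F2 males with females that had not been part of the experiment, so that F2 and F3 pregnancies were themselves untreated. RNA was sequenced from the powdered right hippocampus of juvenile females on postnatal day 40, with 6 Veh and 5 sGC animals in F1, 6 and 6 in F2, and 6 and 7 in F3. Each animal gave 1 library, and no group carried a transgene or a further treatment.

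The 36 libraries held between 13507449 and 19767033 counted reads. Reads on single genes among the 10 ran from 693 for ALDH1L1 to 89890 for SLC1A2 in a library, so that counting error alone was at most 3.80% of a value. Levels are given as CPM, the reads of a gene per 1000000 reads of the library, with library sizes scaled over all 36 libraries by the trimmed mean of M values. They compare libraries, not genes, because they are not divided by transcript length. Differences between sGC and Veh were tested by quasi-likelihood in edgeR and adjusted by the Benjamini-Hochberg method over all genes tested in that generation, and "edgeR adjusted p" refers to it throughout. A gene passed the test where this value was below 0.05. In bulk tissue, fewer cells of a type and less RNA per cell cannot be told apart, and neither can more cells and more RNA per cell.

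The labels number the libraries, and numbers 32 to 36 were all sGC libraries, namely F1 sGC replicates 4 and 5, F2 sGC replicate 6 and F3 sGC replicates 5 and 6. One of them stood apart for these genes. F1 sGC replicate 4 had the highest CPM of its generation for 9 of the 10 genes, GFAP being the exception, and its summed CPM over the 10 genes was 16302, against 8677 to 11350 in the 6 F1 Veh libraries. For the same library 13 of 15 neuron markers lay below the mean of F1 Veh, with a median log2 difference of -0.28. Against the Veh mean of its own generation, the same count held in F2 sGC replicate 6, with a median of -0.17. It held as well in F1 Veh replicate 6 (-0.10), F2 sGC replicate 1 (-0.05) and F3 sGC replicates 1 to 6 (-0.25 to -0.14). The part of these neuron marker levels in the results was not tested. The log2 fold changes in F1 and the tests between generations are given with and without libraries 32 to 36. Whether they were handled apart from the others is not stated in the sources used here, and since no Veh library carries such a number, a difference in handling and the treatment cannot be told apart within them.

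**Figure D1:**
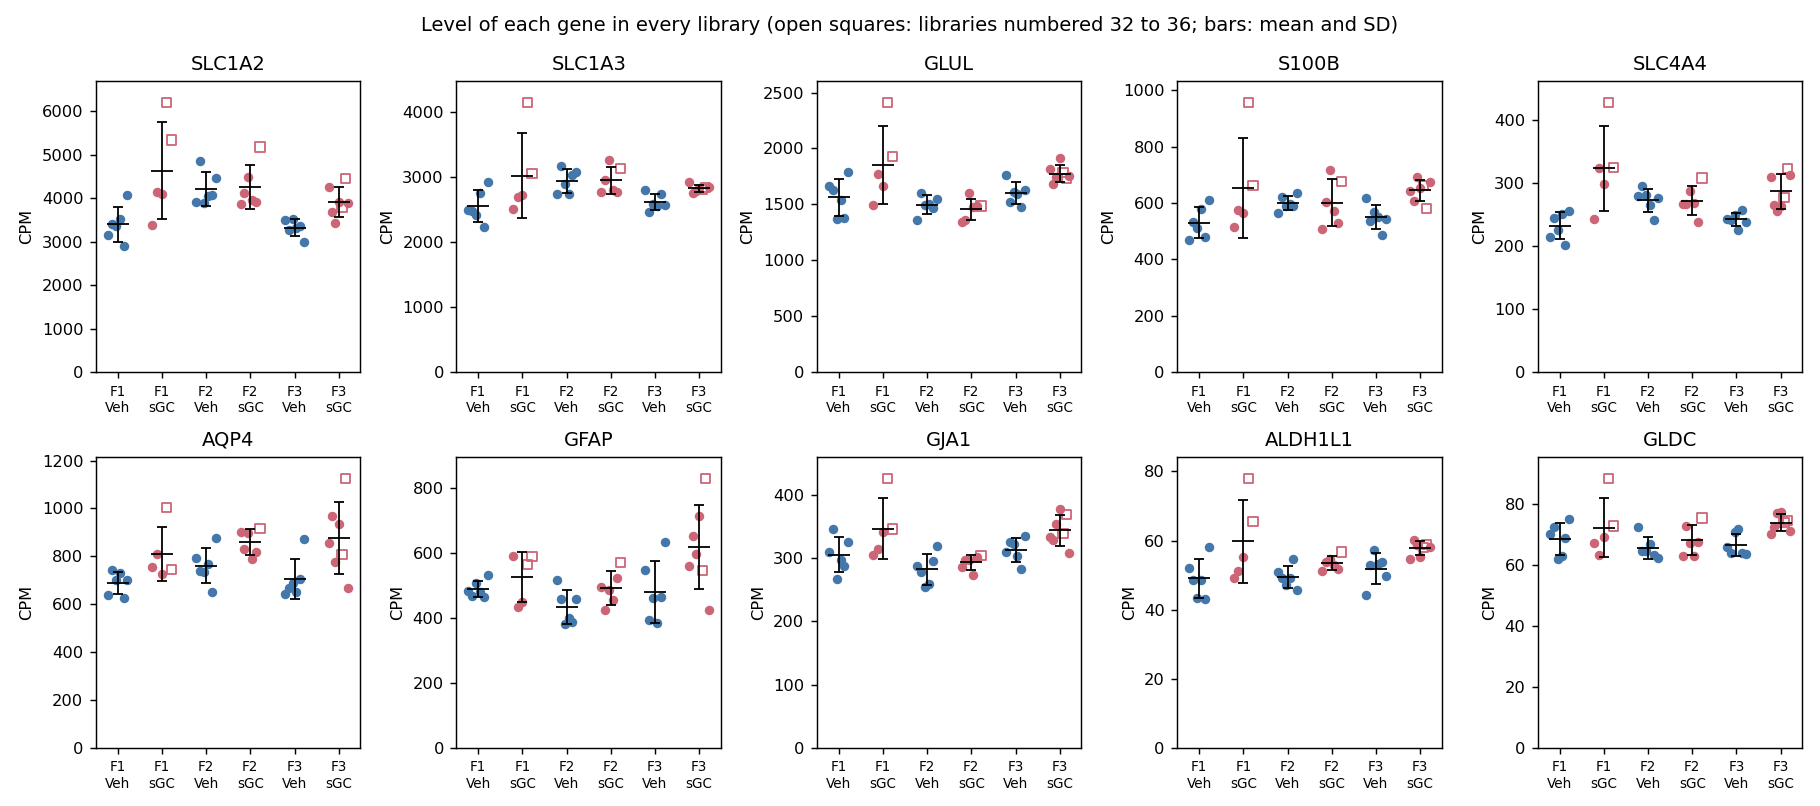
CPM (y axis) of each of the 10 genes in every library of the 6 groups (x axis), with black bars for the group mean and SD and open squares for the libraries numbered 32 to 36. The F1 sGC groups are spread widely, with 1 library at the top for 9 of the 10 genes, and the F3 sGC libraries sit mostly above the F3 Veh libraries.

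SLC1A2, the transporter that carries most glutamate uptake in the forebrain, had 3385, 4146, 4104, 6200 and 5338 CPM in the 5 F1 sGC libraries. The 6 F1 Veh libraries ran from 2890 to 4075 CPM with a median of 3375. Thus 4 of 5 sGC libraries lay above every Veh library and the remaining one lay within their range. The log2 fold change was 0.45 ± 0.13 (SE), a 1.36-fold higher level, and did not pass the test (edgeR adjusted p = 0.0917). Without replicates 4 and 5 the log2 fold change was 0.19. The exact two-sided permutation test of SLC1A2 alone over the 462 regroupings of the animals gave p = 0.0216. Adjusted by the Benjamini-Hochberg method over the genes described here in every generation, this permutation p was 0.0612 and did not pass.

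In F2, SLC1A2 did not separate the groups. Veh libraries lay between 3901 and 4865 CPM with a median of 4062, and sGC libraries between 3874 and 5178 CPM with a median of 4043. The log2 fold change was 0.02, with an approximate 95% interval from -0.12 to 0.15. In F3 SLC1A2 rose. Its Veh libraries lay between 2989 and 3526 CPM (median 3331) and sGC libraries between 3435 and 4461 CPM (median 3889). Of the 7 sGC libraries, 6 exceeded every Veh library. This difference of 0.24 ± 0.06 on the log2 scale, 1.18-fold, passed the test (edgeR adjusted p = 0.0201), and passed it again in each of the 13 fits that left out 1 library.

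SLC1A3, the second astrocytic glutamate transporter, moved less. The 5 F1 sGC libraries had 2507, 2690, 2720, 4146 and 3052 CPM, against 2233 to 2927 CPM (median 2485) in Veh, and 2 of them lay above all Veh values. Its F1 log2 fold change of 0.24 ± 0.11 did not pass (edgeR adjusted p = 0.26), and was 0.11 without sGC replicate 4 and 0.05 without replicates 4 and 5. In F3 the sGC libraries were tightly grouped between 2752 and 2919 CPM (median 2831), and 5 of 7 exceeded the highest of the Veh libraries, which ran from 2467 to 2803 CPM (median 2573). The F3 difference was 0.11 ± 0.03 on the log2 scale, an increase of 7.91% that missed the threshold (edgeR adjusted p = 0.0667). The exact permutation test of SLC1A3 alone in F3 gave p = 0.00233, or 0.0225 after adjustment over the genes and generations.

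GLUL, the enzyme that acts after uptake, had 1491, 1772, 1660, 2410 and 1927 CPM in F1 sGC and 1366 to 1790 CPM (median 1588) in F1 Veh, groups that overlapped in 3 of the 5 sGC libraries. Its F1 difference was 0.24 ± 0.11 (log2, edgeR adjusted p = 0.236), with 0.13 left without replicate 4 and 0.07 without replicates 4 and 5. F2 Veh ran from 1361 to 1604 CPM (median 1500) and F2 sGC from 1339 to 1597 CPM (median 1479), a log2 fold change of -0.04 ± 0.04. In F3, Veh ran from 1475 to 1761 CPM (median 1605) and sGC from 1682 to 1914 CPM (median 1753). GLUL rose by 10.9% in F3 (log2 0.15 ± 0.04, edgeR adjusted p = 0.0456), close to the threshold, and passed in only 3 of the 13 fits with 1 library left out.

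SLC4A4, the electrogenic sodium bicarbonate cotransporter by which astrocytes buffer pH, was the only one of the 10 genes to pass the test in F1. The share of all genes called higher in F1 was 1.63% (185 of 11377). The sGC libraries had 242, 324, 298, 428 and 324 CPM and the Veh libraries 202 to 256 CPM with a median of 235. All but 1 of the sGC libraries exceeded every Veh library. The log2 fold change was 0.48 ± 0.11, a 1.39-fold higher level (edgeR adjusted p = 0.0451). It was kept in 2 of the 11 fits that left out 1 library, in which the log2 fold change ran from 0.36 to 0.56. Without replicates 4 and 5 the log2 fold change was 0.31 (edgeR adjusted p = 0.0956), and in the fit of all generations without libraries 32 to 36 the same 0.31 passed (edgeR adjusted p = 0.0256). In F2 the 2 groups had almost the same mean, 273 ± 18.2 CPM in Veh (SD, n = 6) and 272 ± 23.6 CPM in sGC (SD, n = 6). In F3 SLC4A4 rose from a median of 242 CPM in Veh (226 to 257) to 277 CPM in sGC (256 to 324), with 6 of 7 sGC libraries above all Veh libraries. The F3 log2 fold change was 0.24 ± 0.06 (edgeR adjusted p = 0.0178), past the threshold in all 13 fits with 1 library left out.

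S100B, a calcium-binding protein that astrocytes hold and secrete, had 515, 574, 564, 957 and 662 CPM in F1 sGC against 468 to 611 CPM (median 521) in F1 Veh. Only the libraries of replicates 4 and 5 lay above the Veh range, and the log2 fold change of 0.30 ± 0.13 did not pass (edgeR adjusted p = 0.227). It was 0.13 without replicate 4 and 0.06 without both. In F3, S100B ran from 485 to 617 CPM (median 547) in Veh and from 580 to 692 CPM (median 653) in sGC, and 5 of 7 sGC libraries lay above every Veh library. It had the smallest edgeR adjusted p of the 10 genes in F3, 0.0156, with a log2 fold change of 0.23 ± 0.05. Every fit that left out 1 of the 13 F3 libraries called it, as did the fit without replicates 5 and 6 (log2 0.25, edgeR adjusted p = 0.0247). In F2 the log2 fold change of S100B was 0.0042, with an approximate 95% interval from -0.13 to 0.14.

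AQP4 had a higher mean in sGC animals in each generation and passed the test in none. Its F1 sGC libraries had 757, 811, 727, 1003 and 745 CPM against 627 to 741 CPM (median 701) in Veh, so that 4 of 5 lay above all Veh libraries. In F2, Veh ran from 653 to 878 CPM (median 754) and sGC from 791 to 918 CPM (median 865). In F3, Veh ran from 644 to 872 CPM (median 680) and sGC from 667 to 1126 CPM (median 855). The groups overlapped in all 3 generations, most in F3, where sGC replicate 7 lay below the Veh median and Veh replicate 6 stood far above its group. The log2 fold changes were 0.23 ± 0.08 in F1, 0.18 ± 0.06 in F2 and 0.31 ± 0.10 in F3, with edgeR adjusted p of 0.133, 0.678 and 0.0746. The F1 value was 0.14 without sGC replicate 4 and 0.15 without replicates 4 and 5. AQP4 nevertheless had the smallest unadjusted p of the 10 genes in F2 (edgeR, 0.00728).

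GFAP shared this wide spread in F3. Its F3 libraries ran from 383 to 634 CPM (median 463) in Veh and from 425 to 830 CPM (median 596) in sGC, and 3 of 7 sGC libraries exceeded all Veh libraries. At 0.36 ± 0.14, its F3 log2 fold change was the highest of the 10 genes, and at an edgeR adjusted p of 0.131 it was also the farthest from the threshold. In F1 GFAP fell into separate values, with 592, 565 and 588 CPM in 3 sGC libraries, above the Veh range of 465 to 532 CPM (median 480), and 434 and 448 CPM in the other 2, below it. The F1 log2 fold change was 0.10 ± 0.08 (0.0086 without replicates 4 and 5) and that of F2 0.18 ± 0.08, neither past the threshold (edgeR adjusted p = 0.518 and 0.711).

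GJA1 had 305, 315, 341, 426 and 346 CPM in F1 sGC, against 267 to 346 CPM (median 303) in Veh, and these ranges overlapped in all but 2 libraries. In F3 its sGC libraries ran from 307 to 378 CPM (median 339) and its Veh libraries from 283 to 335 CPM (median 315). The log2 fold changes were 0.18 ± 0.08 in F1, 0.06 ± 0.05 in F2 and 0.14 ± 0.05 in F3. None of the 3 passed the test (edgeR adjusted p = 0.252, 0.834 and 0.116). The F1 value was 0.10 without sGC replicate 4 and 0.07 without replicates 4 and 5.

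ALDH1L1 and GLDC take part in one-carbon metabolism, the first as a folate enzyme that marks astrocytes throughout the brain and the second as the decarboxylase of the glycine cleavage system. ALDH1L1 had 49.1, 51.1, 55.1, 78.0 and 65.5 CPM in F1 sGC against 43.2 to 58.2 CPM (median 48.6) in Veh, and in F3 54.7 to 60.3 CPM (median 58.2) in sGC against 44.3 to 57.1 CPM (median 53.1) in Veh. Its groups overlapped in each generation, and the log2 fold changes of 0.28 ± 0.11, 0.11 ± 0.04 and 0.15 ± 0.05 in F1, F2 and F3 did not pass (edgeR adjusted p = 0.188, 0.711 and 0.0796). The F1 value of ALDH1L1 was 0.17 without replicate 4 and 0.08 without replicates 4 and 5. GLDC showed little in F1, with 67.3, 63.3, 69.1, 88.4 and 72.8 CPM in sGC against 61.9 to 75.1 CPM (median 69.5) in Veh. Its F1 difference of 0.07 on the log2 scale turned to -0.04 without replicates 4 and 5. In F3 GLDC ran from 70.1 to 77.3 CPM (median 74.0) in sGC and from 63.6 to 71.7 CPM (median 65.0) in Veh, and it rose by 10.7% (log2 0.15 ± 0.04, edgeR adjusted p = 0.0395). That call was kept in 4 of the 13 fits that left out 1 library.

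**Figure D2:**
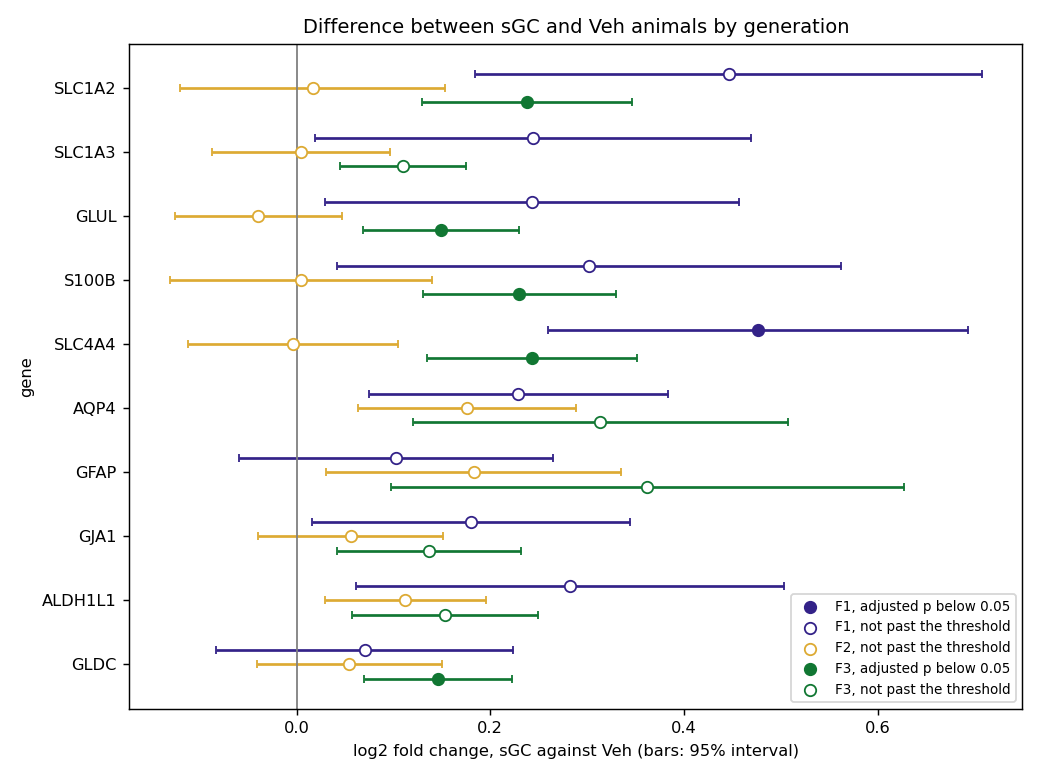
Log2 fold change of sGC against Veh (x axis) for each gene (y axis) in F1, F2 and F3, with bars for the approximate 95% interval and filled points where edgeR's adjusted p was below 0.05. All F1 and F3 points lie right of 0, SLC4A4 alone is filled in F1, and SLC1A2, GLUL, S100B, SLC4A4 and GLDC are filled in F3.

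By generation, the 10 genes had a median log2 fold change of 0.24 in F1, where the median over all genes tested was -0.0055. All 10 were above 0 in F1, as were 48.3% of all genes, and 7 had an unadjusted edgeR p below 0.05, each of them higher, against 10.5% of all genes that were higher at that level. Without replicates 4 and 5 the median was 0.07, 9 of 10 were above 0 and none passed the adjusted threshold. The fit of the 3 generations together called 5 in F1 with all 36 libraries (SLC1A2, SLC1A3, GLUL, SLC4A4 and ALDH1L1). In that fit 843 of all 11389 genes were called in F1. Without libraries 32 to 36 it called 1 of the 10, SLC4A4, and 313 of all 11419 genes. Markers of other cell types were read in the same F1 libraries. Of 12 meningeal markers 11 were lower in sGC, with DCN and LUM past the test, and their summed level was 141 to 250 CPM in sGC against 181.2 to 455 CPM in Veh, both DCN and LUM being detected in all groups. Of 8 oligodendrocyte markers 7 were lower, none past the test. Their part in the result was not tested.

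In F2 the median log2 fold change of the 10 genes was 0.04, with 8 above 0, as were 49.7% of all genes, and GLUL and SLC4A4 below. None of them and no gene of the 11414 tested passed (0%), while at an unadjusted edgeR p below 0.05 there were 3 of the 10 (AQP4, GFAP and ALDH1L1, all higher) and 758 genes in all (6.64%). DESeq2 called 12 genes in F2, none of the 10.

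In F3 the median was 0.19 against 0.0048 over all genes, with all 10 above 0, as were 51.7% of all genes. The 5 genes that passed (SLC1A2, GLUL, S100B, SLC4A4 and GLDC) compare with 2.17% of all genes called higher (247 of 11359). All 10 were higher at an unadjusted edgeR p below 0.05, as were 10.3% of all genes. For no single gene were the 2 groups wholly apart in F3, although 0.813% of all genes were, with sGC higher. Every sGC library had 7 or more of the 10 genes above the mean of F3 Veh. The count depended on the fit. Without replicates 5 and 6 it was 3 (SLC1A2, S100B and SLC4A4), where 2.79% of all genes were called. With the 3 generations fitted together it was 1, AQP4 (edgeR adjusted p = 0.0409), where 3.17% were called. All 10 genes were above 0 in both fits.

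**Figure D3:**
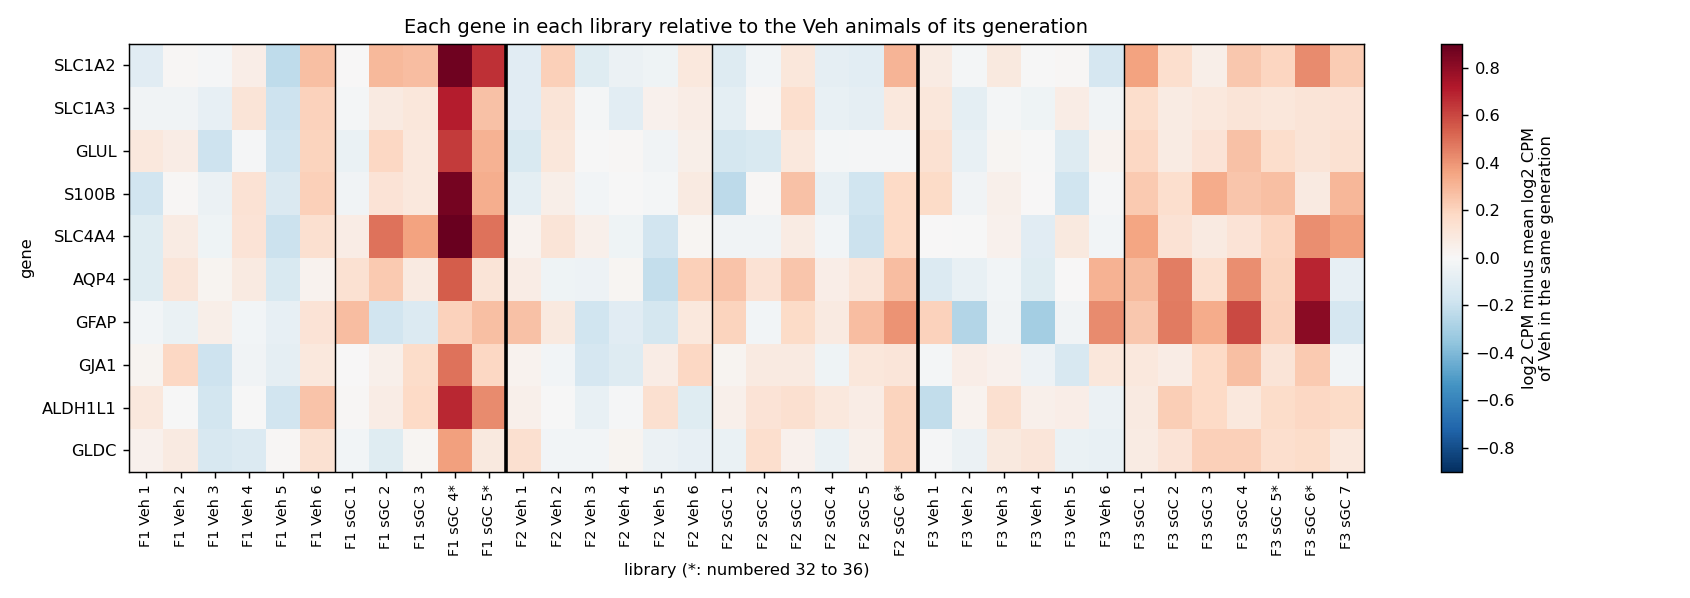
Log2 CPM of each gene (rows) in each library (columns) minus the mean log2 CPM of the Veh libraries of its generation, red for higher and blue for lower, with asterisks on the libraries numbered 32 to 36. F1 sGC replicate 4 is red for all 10 genes, and 6 of the 7 F3 sGC libraries are above the Veh mean for all 10 genes. F2 shows no block over the 10 genes together, but AQP4 and ALDH1L1 are above the Veh mean in all 6 F2 sGC libraries and GFAP in 5.

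Neuron markers went the other way in F3. Of 15 tested, 13 were lower in sGC and 9 passed (median log2 fold change -0.17), among them SYP (-0.21 ± 0.03, edgeR adjusted p = 0.00195), SYT1 (-0.19 ± 0.03, 0.00765), ENO2 (-0.17 ± 0.03, 0.00898), NEFM (-0.22 ± 0.05, 0.0104) and GAD2 (-0.20 ± 0.04, 0.0116), while 2.87% of all genes were called lower. The other 2 were higher without passing, MAP2, a dendritic microtubule protein (0.18 ± 0.07, edgeR adjusted p = 0.136), and CAMK2A (0.18 ± 0.07, 0.16). The summed level of the list was 16887 to 20656 CPM in sGC and 18236 to 19573 CPM in Veh, ranges that overlapped. CAMK2A, the gene with the highest level of the list, made up 5651 ± 207 CPM of it in Veh (SD, n = 6) and 6412 ± 880 CPM in sGC (SD, n = 7). In F1 and F2 none of the 15 passed, with medians of -0.03 in each. Microglia markers were higher in F3 for 9 of 9 tested and meningeal markers for 12 of 12, of which PDGFRB alone passed. The part of these shifts in the result for the 10 genes was not tested.

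The 3 interaction tests asked whether the sGC effect differed between generations. None of the 10 genes passed in any of them. The largest difference was that of SLC4A4 between F2 and F1, -0.48 ± 0.12 on the log2 scale (edgeR adjusted p = 0.0516), followed by SLC1A2 with -0.43 ± 0.14 (edgeR adjusted p = 0.106), and in that comparison 0.351% of all genes passed. Between F3 and F1 and between F3 and F2 no gene of the 11389 tested passed (0%), although 13.1% and 9.01% had an unadjusted edgeR p below 0.05, as had SLC4A4 in both. The likelihood ratio test called 57 genes between F3 and F1 and 0 between F3 and F2, none of them among the 10. The F3 effect was larger than the F2 effect for all 10 genes, by a median of 0.16, and for SLC1A2 the approximate 95% interval of that difference ran from -0.04 to 0.48.

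These differences between generations depended on libraries 32 to 36. Without them none of the 10 genes passed either, but the F3 effect exceeded the F1 effect for 9 of the 10, with a median difference of 0.07, where it did so for 3 of the 10 with a median of -0.09 when all libraries were used. For SLC1A2 the F3 minus F1 difference went from -0.22 to 0.02, for SLC1A3 from -0.14 to 0.06, for GLUL from -0.10 to 0.08, for S100B from -0.08 to 0.19 and for ALDH1L1 from -0.14 to 0.06. The F2 minus F1 difference of SLC4A4 was then -0.36 ± 0.10 (edgeR adjusted p = 0.0616) and that of SLC1A2 -0.24 ± 0.11 (edgeR adjusted p = 0.212). Over all genes 3.91% then passed between F3 and F1 and 1.09% between F2 and F1. The F3 effect was still above the F2 effect for all 10 genes, by a median of 0.14.

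Averaged over the 3 generations with equal weight, 7 of the 10 genes were higher in sGC past the threshold, where 4.87% of all genes were. These were SLC4A4 (log2 0.24 ± 0.05, edgeR adjusted p = 0.00331), AQP4 (0.24 ± 0.05, 0.00562), SLC1A2 (0.23 ± 0.06, 0.00915), ALDH1L1 (0.18 ± 0.04, 0.0107), GJA1 (0.12 ± 0.04, 0.0322), S100B (0.18 ± 0.05, 0.0362) and GFAP (0.22 ± 0.07, 0.0392). SLC1A3, GLUL and GLDC did not pass, at 0.12, 0.12 and 0.09. Without the libraries numbered 32 to 36 all 10 mean differences were still above 0, with a median of 0.10 in place of 0.18, and none passed. SLC4A4 then had 0.16 ± 0.04 (edgeR adjusted p = 0.0519) and AQP4 0.19 ± 0.05 (edgeR adjusted p = 0.0538), and the share of all genes called fell from 8.53% to 0.56%.

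Among the Veh animals, 3 of the 10 genes differed between generations, SLC1A2, SLC1A3 and SLC4A4 (edgeR adjusted p = 0.00406, 0.0384 and 0.0382), where 42.4% of all genes did. All 3 had their highest Veh mean in F2 and were higher in F2 than in F1 past the threshold, as were 22.6% of all genes. SLC1A2 had 3398 ± 399 CPM in F1 Veh, 4211 ± 383 in F2 Veh and 3324 ± 193 in F3 Veh (SD, n = 6 each), so that F2 exceeded F1 by 0.32 ± 0.10 on the log2 scale and F1 and F3 differed by less than their spread. Ordered by mean, F2 Veh lay next to F2 sGC for SLC1A2 and SLC1A3, and the 2 differed by less than their spread. Over all genes, 44.8% passed between F2 and F1 Veh, 37.9% between F3 and F2 Veh and 0.0439% between F3 and F1 Veh. The generations were bred at different times, and generation and time of handling cannot be told apart.

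Other genes of the same pathways were read from lists, beside the all-gene medians given above. Among other astrocyte genes 26 of 30 were higher in F1, 24 of 31 in F2 and 28 of 30 in F3, with medians of 0.14, 0.05 and 0.12. In F3 5 of them passed, all higher: APOE, the main lipid carrier made by astrocytes (0.18 ± 0.03, edgeR adjusted p = 0.00801), the transcription factor NFIA (0.18 ± 0.04, 0.0274), the lipid phosphatase PLPP3 (0.18 ± 0.05, 0.0318), the second astrocytic connexin GJB6 (0.18 ± 0.05, 0.038) and NDRG2 (0.16 ± 0.05, 0.0488). In F1 GPC5, a glypican, passed alone (0.41 ± 0.08, edgeR adjusted p = 0.0202). KCNJ10, the potassium channel of astrocytes, had 0.16, 0.06 and 0.14 in F1, F2 and F3 and passed in none.

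Genes of the glutamate, glutamine and GABA cycle moved in both directions in F3. The neuronal glutamate transporter SLC1A1 fell by 0.17 ± 0.04 on the log2 scale (edgeR adjusted p = 0.0245), from 129 ± 4.36 CPM in Veh (SD, n = 6) to 115 ± 6.99 CPM in sGC (SD, n = 7). The mitochondrial aspartate aminotransferase GOT2 (-0.23 ± 0.05, edgeR adjusted p = 0.00902) and the GABA-synthesising enzymes GAD1 (-0.24 ± 0.06, 0.0183) and GAD2 fell as well. SLC7A11, the cystine and glutamate exchanger, rose (0.22 ± 0.05, edgeR adjusted p = 0.0242). The list as a whole had 11 higher and 10 lower of 21, with a median of 0.02. The vesicular transporter SLC17A7 (-0.09 ± 0.05) and the glutamine exporter SLC38A3 (0.08 ± 0.05) did not pass in F3. In F1 GRM5, a metabotropic glutamate receptor, was the only gene of the list to pass (0.42 ± 0.07, edgeR adjusted p = 0.0102).

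Partners of AQP4 in the end-foot complex were higher in F3 for 8 of 10 and lower for 2 of 10. DTNA, a dystrobrevin, rose by 0.15 ± 0.04 on the log2 scale (edgeR adjusted p = 0.0383). None of the named partners of GLDC was called higher. The glycine cleavage subunits AMT, GCSH and DLD had F3 log2 fold changes of -0.01, 0.09 and -0.11, none past the test, and the folate enzyme MTHFD1 fell by 0.14 ± 0.03 (edgeR adjusted p = 0.0258). In F1 and F2 none of the genes on these 2 lists passed.

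**Figure D4:**
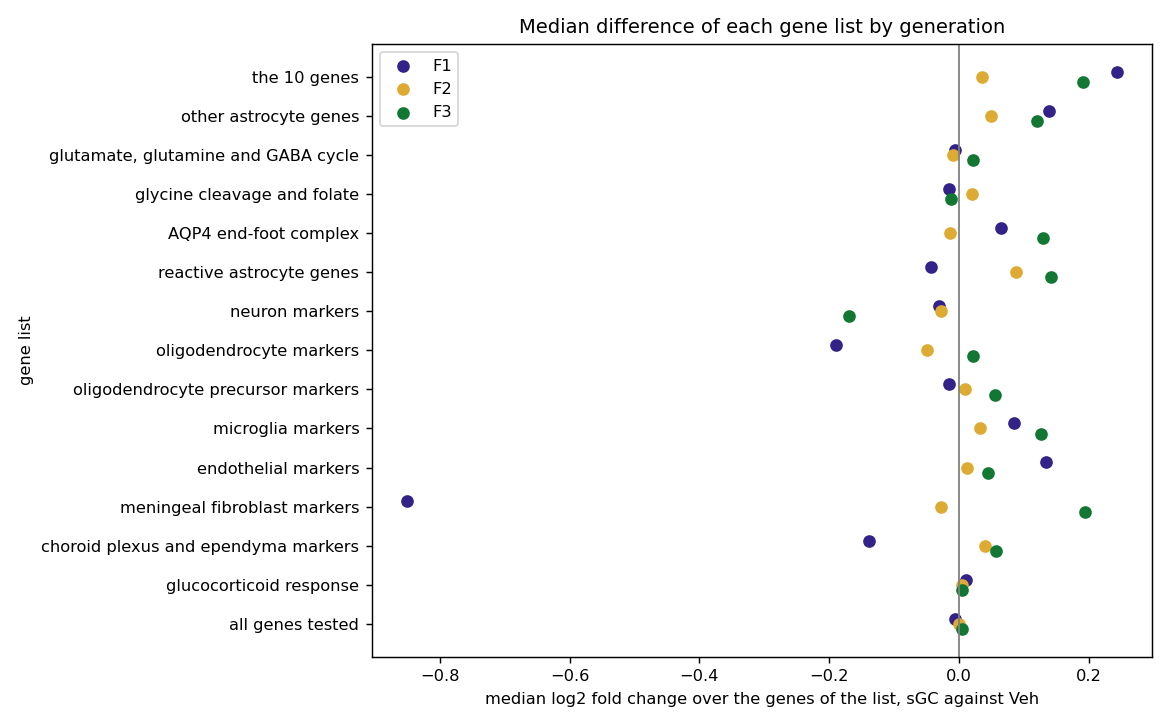
Median log2 fold change of sGC against Veh (x axis) over the tested genes of each list (y axis), in F1, F2 and F3, with all genes tested at the bottom. The 10 genes and the other astrocyte genes lie right of 0 in all 3 generations, the neuron markers lie at -0.17 in F3, and the meningeal fibroblast markers lie at -0.85 in F1.

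After removal of the 6 group means, the 10 genes varied together across the 36 animals. All 45 pairs had a positive Pearson r of log2 CPM, with a median of 0.53 and a range from 0.05 to 0.87, and 29 pairs passed a permutation test adjusted over the 45 pairs (13 by Spearman's rho). Co-variation was highest in F1, where the library of sGC replicate 4 stands apart: the median r over pairs was 0.79 in F1, 0.30 in F2 and 0.03 in F3. When the 2 libraries farthest from the median were left out, it was 0.29, and without libraries 32 to 36 it was 0.35. The transporters were among the closest pairs, SLC1A2 with SLC1A3 at r = 0.85 (rho = 0.81, both permutation p = 0.00015 after adjustment, from the smallest p that the permutations can give, r = 0.77 without the 2 farthest libraries) and SLC1A2 with SLC4A4 at r = 0.84 (rho = 0.74, r = 0.72).

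AQP4 and GFAP were closer to each other than to any of the other 8 genes. Their r was 0.68 over 36 libraries (rho = 0.54, permutation p = 0.0012 for r and 0.0108 for rho after adjustment, r = 0.52 without the 2 farthest libraries), with 0.19 in F1, 0.58 in F2 and 0.86 in F3. SLC1A3 with S100B had the highest r of all pairs, 0.87, but 0.97 in F1, 0.84 in F2 and 0.13 in F3. GFAP with SLC1A2 had r = 0.22. Among all 11388 genes ranked by r with SLC1A2, SLC1A3 was at rank 5 and SLC4A4 at rank 7, while AQP4 was at rank 1554 and GFAP at rank 2858. The 5 genes outside the 10 with the highest r were APC (0.87), MAP2 (0.86), ZMAT3 (0.86), C1ORF21 (0.86) and SLC35A3 (0.84). The 2 genes of a pair were read from the same libraries and share the preparation and depth of each. The part of this in the correlations was not tested.

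**Figure D5:**
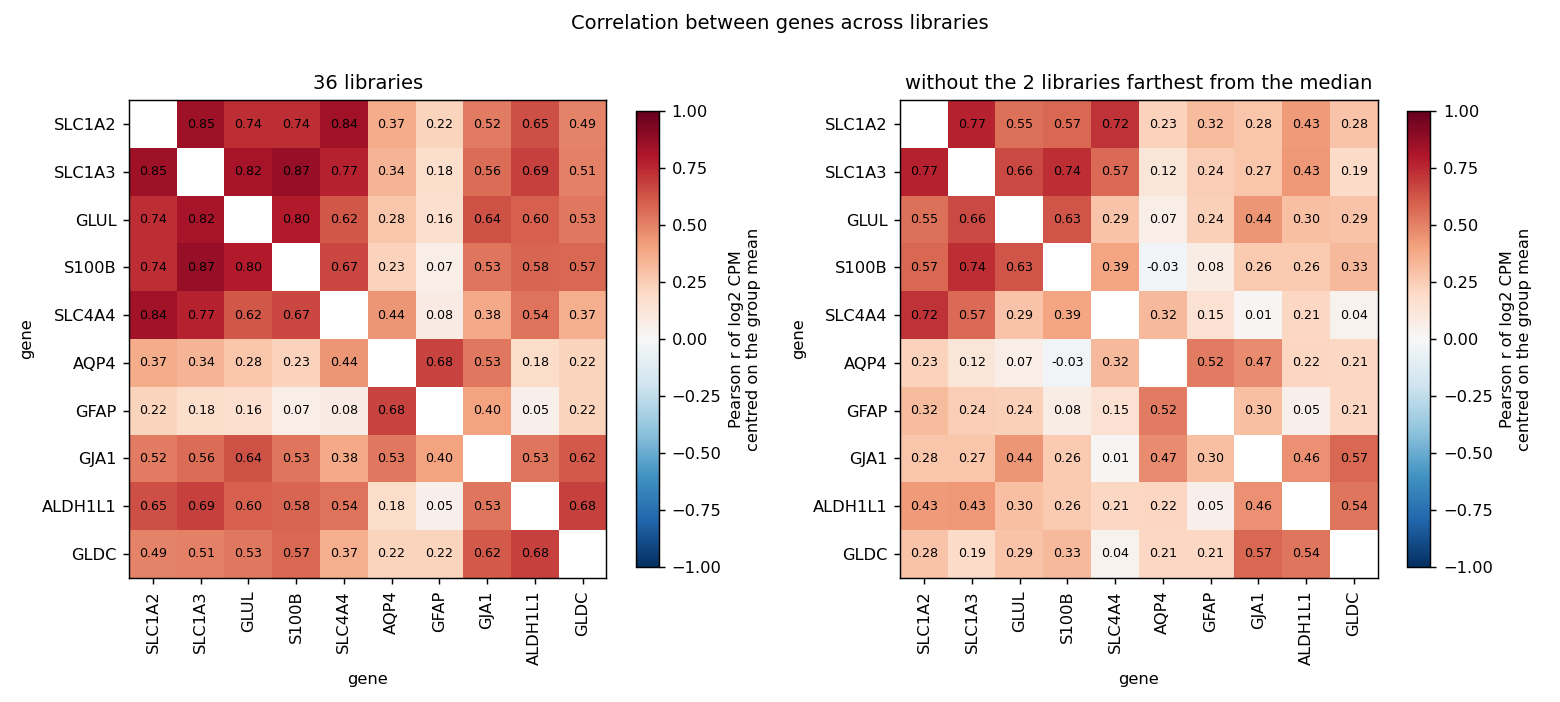
Pearson r between each pair of the 10 genes (both axes) of log2 CPM centred on the group mean, over 36 libraries on the left and without the 2 libraries farthest from the median of the first gene on the right. SLC1A2, SLC1A3, GLUL, S100B and SLC4A4 form a block on the left, AQP4 with GFAP stands at 0.68, and values on the right are mostly lower.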

How the data were processed

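The 10 genes and all gene lists were chosen with earlier results of these data known. For each RNA library the authors deposited unnormalised gene-level read counts, in 1 table per generation. TopHat2, Trimmomatic 0.32 and R 3.2.3 stand among the tools in the submitters' processing notes. The authors describe Trimmomatic 0.32 and R 3.2.3 for the methylation data, and edgeR for the RNA. The read counter, genome build and annotation used for RNA are not given in the sources used here. The library kit does not mark strand, so overlapping antisense reads cannot be told apart. The authors' fold change and p-value columns and the methylation tables, which hold only such comparisons, were not used. No column of another sample was present.

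Counts were analysed in R 4.3.3 with edgeR 4.0.16. Genes were filtered with filterByExpr (minimum count 10), scaled by the trimmed mean of M values and tested with the quasi-likelihood F test within each generation, adjusted by Benjamini-Hochberg at 0.05. Interactions, the mean effect and the Veh generations were tested in 1 model of the 36 libraries over genes in all 3 tables. Log2 CPM used a prior count of 2. Approximate 95% intervals assume a normal error. Permutation tests were two-sided, exact for single genes and with 100000 permutations within groups for correlations (scipy 1.17.1). Alternatives were the likelihood ratio test, DESeq2 1.42.0, median-ratio scaling, no filter, a replicate block, all generations together, omission of libraries 32 to 36 and omission of each library. The fits were tested on simulated data. Libraries of 1 group differed by more than sampling noise, with 2.15 to 29.6 chi-square per degree of freedom, so none repeated the reads of another in its group. Pairs across groups were not compared, and 2 libraries made from 1 animal could not be recognised in this way. Offspring came from independent mothers, and same-numbered animals of the 2 groups were not treated as pairs in the main fit. The named genes were the 10, their defining partners and up to 6 genes per list and generation past the threshold. Some genes that the rule would name are not reported here.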

Additional observations from a re-analysis of the deposited data

Results flagged for a closer look

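In a test of each of the 10 genes in each of the 6 groups for a highest or lowest library far from the rest (60 tests of Dixon's ratio, of which chance flags about 1 in 20), 1 value stood out. AQP4 in F3 Veh replicate 6 was 872.46 CPM, where the median of its group was 680 CPM and the gap to the next library was 0.737 of the group's whole range. The same library also had the highest GFAP of F3 Veh, 634 CPM. Without it the F3 log2 fold change of AQP4 was 0.38 in place of 0.31 and passed the threshold (edgeR adjusted p = 0.0315). That was the highest value of the 13 fits that left out 1 F3 library. The lowest was 0.24, without sGC replicate 6, and 2 of the 13 passed.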

How the results depend on the processing

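Median-ratio scaling and the absence of a filter left the number of the 10 genes called in F1, F2 and F3 at 1, 0 and 5. Of all genes, 2.13%, 0% and 4.91% were called under the first and 2.01%, 0% and 4.71% under the second. In F1 it was 2 with the likelihood ratio test (5.26% of all genes called) and 2 with DESeq2 (6.55%). It was 5 with all generations fitted together (7.4%) and 0 without libraries 32 to 36 (0.845%), against 2.08% of all genes in the fit reported. When each library was left out in turn it was 0 to 2 (0.49% to 3% of all genes). In F3 it was 7 with the likelihood ratio test (6.94% of all genes) and with DESeq2 (13.2%). It was 1 with all generations together (3.17%) and 3 without libraries 32 to 36 (2.79%), against 5.04%. With each library left out it was 3 to 5 (2.54% to 5.63% of all genes), and 3 without Veh replicate 2 or 5 or sGC replicate 3, 4 or 5. In F2 it was 0 throughout (0% to 0.137% of all genes). The F2 minus F1 interaction called 1 of the 10 with the likelihood ratio test (1.48% of all genes). With each library left out it called 0 to 2 of the 10 (0 to 223 genes in all). The highest was without F1 sGC replicate 1 or F2 sGC replicate 6. The mean effect called 0 without libraries 32 to 36 (0.56% of all genes). With each library left out it called 4 to 9 (4.77% to 10.4% of all genes). It called 4 without F1 sGC replicate 4, F2 Veh replicate 3 or F2 sGC replicate 6. The Veh generations called 1 to 3 of the 10, where 37.4% to 44.8% of all genes were called. The leave-one-out fits of the joint model were chosen after seeing the data. The cause of these changes was not tested.

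With the replicate number as a block, 1 of the 10 genes was called in F1 (SLC4A4), where 0.598% of all genes were called in place of 2.08%. In F3 it was also 1 (AQP4), where 1.51% of all genes were called in place of 5.04%. Correlations between same-numbered animals ran from -0.07 to 0.28 in F1, from -0.29 to 0.19 in F2 and from -0.29 to 0.02 in F3. They do not decide whether the numbers pair the animals, because paired animals may deviate together only weakly. S100B in F2 had -0.0056 under the block.

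Within generations, signs turned for the following differences, all near 0, while between F3 and F1 the median difference turned from -0.09 to 0.07 without libraries 32 to 36. Without libraries 32 to 36, GLDC in F1 was -0.04, and in F2 SLC1A2 was -0.047, SLC1A3 -0.014 and S100B -0.033, leaving 5 of 10 above 0 in F2. With each library left out, GLDC in F1 ran from -0.0086 to 0.11, and in F2 SLC1A2 ran from -0.047 to 0.062, SLC1A3 from -0.026 to 0.028, S100B from -0.053 to 0.048 and SLC4A4 from -0.042 to 0.031. Over all genes, the count called ranged from 56 to 843 in F1 and from 0 to 12 in F2, and in F3 from the share under the block to 944 genes with DESeq2.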

Other observations

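The ratio of SLC1A2 to SLC1A3 reads within a library, which no scaling of libraries can change and which was chosen after seeing the data, was 1.33 ± 0.06 in F1 Veh (SD, n = 6) and 1.53 ± 0.14 in F1 sGC (SD, n = 5), 1.43 ± 0.07 and 1.44 ± 0.10 in F2 (n = 6 each), and 1.27 ± 0.07 and 1.39 ± 0.11 in F3 (n = 6 and 7). The exact two-sided permutation test gave p = 0.0108 in F1, 0.866 in F2 and 0.0425 in F3, or 0.0325, 0.866 and 0.0638 after adjustment over the 3 generations. SLC1A2 was thus higher relative to SLC1A3 in F1 sGC animals by more than the spread between animals, and the groups overlapped in each generation.

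Genes linked to reactive astrocytes were higher in 10 of 12 in F2 (median 0.09) and 10 of 12 in F3 (0.14) but in 5 of 12 in F1 (-0.04), and none passed the test in any generation. Among genes known to respond to glucocorticoids, 6 of 11 were higher in each generation, with medians of 0.01, 0.0052 and 0.0046. NR3C2, the mineralocorticoid receptor, was the only one of them to pass, and it fell by 0.18 ± 0.03 on the log2 scale in F3 (edgeR adjusted p = 0.00752). Endothelial markers (10, 7 and 9 of 12 higher in F1, F2 and F3), oligodendrocyte precursor markers (3, 4 and 6 of 7) and choroid plexus and ependyma markers (2 of 6, 7 of 8 and 5 of 6) had no gene past the threshold in any generation.

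Among the Veh animals, the astrocyte lipid carrier APOE had 2421 ± 203 CPM in F1, 1041 ± 60.7 in F2 and 2293 ± 40.3 in F3 (SD, n = 6 each), and the neuronal vesicular transporter SLC17A7 had 2142 ± 142.6, 1209 ± 49.3 and 2100 ± 65.8 CPM. Of all genes, 44.8% differed past the threshold between F2 and F1 Veh, against 0.0439% between F3 and F1 Veh. Generation and time of handling cannot be told apart in these values.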
